A study of Homo sapiens with 60 samples.

Results

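The comparison described here set A549 cells, an established line from a human lung adenocarcinoma, kept for 24 h with 360 µg/mL of a water extract of Aconiti Lateralis Radix Preparata, the processed lateral root of aconite, against A549 cells given vehicle. It used 6 of the 60 libraries of the series, 3 at the high dose and 3 with vehicle, chosen by their labels alone, and it was read across all 17268 genes that passed a filter on low counts. The series profiled A549 cells after herbal extracts by RNA sequencing, each extract at 3 doses, and the top dose of an extract toxic to the cells was set at its IC20, a concentration of limited inhibition. The 3 medium-dose libraries at 72 µg/mL and the 3 low-dose libraries at 14.4 µg/mL of the same extract, also taken at 24 h, were read alongside. The vehicle libraries are labelled 0.1% DMSO (dimethyl sulfoxide), whereas the design text of the series names 2% DMSO, and the labels do not say whether the extract samples held DMSO. All cells were one line in one medium, and nothing in the labels says that the replicates were separate cultures. The p-values therefore measure a spread between libraries, which was estimated over 57 libraries of the series and not over the 6 compared alone. The titles of the vehicle and Aconiti libraries share the same label, BatchB. Their sample numbers differ in the first part, which is called the set label here, and what it stands for is not stated. Thus a difference between such sets and an effect of the extract cannot be told apart in the comparison with vehicle. The comparison of high dose with low dose, which stays within the extract's own set label, is therefore given beside it.

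As background, cells short of amino acids, under strain in the endoplasmic reticulum or with impaired mitochondria phosphorylate the translation factor eIF2alpha. This slows bulk translation and raises the transcription factor ATF4, a programme known as the integrated stress response. ATF4 and its partner CHOP, the product of DDIT3, switch on genes for amino acid synthesis and uptake, transfer RNA charging and feedback control. Heat shock genes answer to a different factor, HSF1, which binds repeats of the letters GAA. Mitochondria transcribe their own small circular genome, which encodes ribosomal RNAs, transfer RNAs and subunits of the respiratory chain.

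The high-dose libraries held 22734191, 25227363 and 28674314 counts, and the vehicle libraries held 25806698, 26324279 and 18894751. Replicates differed by more than counting noise in every pair, with chi-square per degree of freedom between 2.82 and 34.7 over the 4 groups read. It ran between 15.2 and 34.7 at the high dose and between 2.82 and 5.50 with vehicle. The spread thus differed between the compared groups, while the test shared it over 57 libraries. High-dose libraries 2 and 3 stood apart in transcript length. The length balance, the mean log2 level of genes whose longest annotated transcript is over 6000 bases minus that of genes under 1500 bases, was 3.42, 2.98 and 3.01 in the high-dose libraries, against 3.52, 3.44 and 3.36 in vehicle. It was 3.47, 3.35 and 3.05 at the low dose and 3.40, 3.19 and 3.10 at the medium dose. The line's epithelial label held: the keratin KRT8 averaged 3207 CPM (counts scaled to library size) at the high dose and 3672 CPM with vehicle. The surfactant genes SFTPA1, SFTPB, SFTPC and SFTPD of alveolar cells, however, reached no more than 6 counts in any of the 6 libraries. PTPRC and CD3E, which define leukocytes, and HBB of red cells had 0 counts in all 6 libraries. CD68, a lysosomal protein of macrophages that other cells also make, held most of the leukocyte list's sum, which ran between 7.02 and 8.48 CPM at the high dose and between 6.38 and 8.68 CPM with vehicle. Endothelial markers summed to between 0 and 0.07 CPM at the high dose and between 0.11 and 0.16 CPM with vehicle.

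At the high dose 5652 of 17268 genes, 32.7% of those tested, differed from vehicle at an adjusted p under 0.05 in edgeR's quasi-likelihood test. Of these, 2943 genes were higher (17%) and 2709 were lower (15.7%). Most changes were small: the median size among called genes was 0.45 on the log2 scale, and 5073 of them moved by less than 1. At least 1 log2 unit separated the groups for 383 higher and 196 lower genes, and at least 2 log2 units for 53 higher and 16 lower genes. In 7184 genes, 41.6% of those tested, the 3 high-dose libraries did not overlap the 3 vehicle libraries. The median over all genes tested was -0.0045, and the median ratio of mean levels under plain library totals was -0.13, so each fold change is relative to the bulk of the genes. Against the low dose, 3922 genes passed (22.7%), 1971 higher (11.4%) and 1951 lower (11.3%). With high-dose library 1 as the lone high-dose library, fewer genes passed in both comparisons, so list counts from that fit are not on the same scale as the main counts.

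Among nuclear protein-coding and long noncoding genes with names other than clone, LINC or antisense names, a mean of at least 5 CPM in whichever group was higher, and libraries that separated completely by group, the largest rise was in ADM2, which encodes the peptide hormone adrenomedullin 2 (chr22:50481556-50486440, GRCh38). ADM2 had 12.1, 12 and 11.7 CPM in the high-dose libraries, against 1.22, 1.55 and 1.57 CPM in vehicle, a log2 fold change of 3.05 ± 0.16 (SE, adjusted p = 9.0e-20). CXCL8 and NIBAN1 followed at 2.78 and 2.72, and both are described with their groups below. BEX2, a small adaptor protein of the brain-expressed X-linked family, had 6.87, 6.85 and 8.50 CPM at the high dose, against 1.03, 1.37 and 1.15 CPM in vehicle (2.64 ± 0.21). RAB39B, a small GTPase of vesicle traffic, was 2.36 higher, AKNA, a microtubule-organizing protein, 2.12 higher, and TSC22D3, known as the glucocorticoid-induced leucine zipper, 2.06 higher. TSC22D3 had 40.3, 44.2 and 41.1 CPM at the high dose, against 9.74, 10.2 and 10.2 CPM with vehicle. These genes were picked among those whose libraries did not overlap between the groups.

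The largest falls among the same kinds of genes were smaller in size than the largest rises. HSPA1A, the inducible heat shock protein, fell by 1.55 and the imprinted noncoding RNA H19 by 1.49. FAM111B, a nuclear protease of dividing cells, had 9.65, 7.28 and 11 CPM at the high dose, against 27.0, 25.2 and 25.3 CPM in vehicle (-1.47 ± 0.15). E2F8, a repressor among the E2F cell-cycle factors, fell by 1.32, RNF43, a ubiquitin ligase that removes Wnt receptors, by 1.27, and PCDH17, a protocadherin, by 1.42. BCAS1 had 3.53, 4.25 and 4.68 CPM at the high dose, against 9.17, 10.4 and 11.3 CPM with vehicle (-1.30 ± 0.10). TMED7-TICAM2, at -1.44, is a readthrough of neighbouring genes whose reads cannot be divided with certainty, and it did not pass against the low dose (-0.30, adjusted p = 0.622).

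Transcripts of the mitochondrial genome gained most in counts. They made up 16.97%, 16.48% and 18.95% of the counts at the high dose (17.47% ± 1.31, SD, n = 3), against 8.44%, 7.91% and 8.54% in vehicle (8.30% ± 0.342, SD, n = 3). The ribosomal RNAs gained more than the whole genome did: they held 13.27% ± 0.854 of counts at the high dose and 2.37% ± 0.0999 with vehicle, while all other mitochondrial genes held 4.2% ± 0.479 at the high dose and 5.92% ± 0.258 with vehicle. By dose, the ribosomal RNA share averaged 2.37% with vehicle, 2.65% at 14.4 µg/mL, 7.74% at 72 µg/mL and 13.27% at 360 µg/mL. In the 51 libraries outside the medium and high Aconiti doses it ran between 2.12% and 3.11%. These shares are given without a test, since an exact permutation test of 3 against 3 libraries cannot give a two-sided p below 0.1.

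MT-RNR1, the 12S ribosomal RNA of the small mitochondrial subunit (chrM:648-1601), had 35644, 42707 and 44528 CPM at the high dose, against 1615, 1448 and 1649 CPM in vehicle (4.71 ± 0.20, adjusted p = 2.4e-22). MT-RNR2, the 16S RNA of the large subunit (chrM:1671-3229), had 99504, 96486 and 116344 CPM at the high dose, against 22567, 20560 and 22033 CPM in vehicle (2.26 ± 0.09, adjusted p = 1.7e-24). The lowest high-dose library lay far above the highest vehicle library for both, and in 41.6% of all genes tested the groups did not overlap. Per base of annotated length, the ratio of 12S to 16S was 0.585, 0.723 and 0.625 in the high-dose libraries, against 0.117, 0.115 and 0.122 in vehicle. It was 0.247, 0.257 and 0.294 at the low dose and 0.618, 0.649 and 0.690 at the medium dose. The libraries were made as mRNA libraries, so the counts of these RNAs depend on how much of them such a preparation retains, and the labels give no measure of that.

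Of the 13 mitochondrial protein genes, 3 were higher and 8 lower at the high dose, and MT-ND1 and MT-ND2 did not pass (-0.23, adjusted p = 0.368, and -0.12, adjusted p = 0.682). Against the low dose 2 were higher and 10 lower, MT-ND1 and MT-ND2 among the lower ones. The shares over all genes were 17% higher and 15.7% lower against vehicle, and 11.4% and 11.3% against the low dose. The lower genes lie together, from MT-CO1 to MT-ND4. MT-CO1, the catalytic subunit of cytochrome oxidase, had 8368, 8360 and 8726 CPM at the high dose, against 15228, 14207 and 14347 CPM in vehicle (-0.78). MT-CO3 of the same complex had 3370, 3728 and 4874 CPM at the high dose, against 9571, 8954 and 9449 CPM in vehicle (-1.22 ± 0.13). MT-ATP6 of the ATP synthase fell by 0.89 and MT-ND4 of complex I by 1.05. The higher genes lie at the far end of the coding region. MT-CYB, cytochrome b of complex III (chrM:14747-15887), had 9192, 8127 and 12032 CPM at the high dose, against 3704, 3419 and 4220 CPM in vehicle (1.37 ± 0.17). MT-ND5 and MT-ND6, complex I subunits on opposite strands, were 1.10 and 1.12 higher, though MT-ND6 did not pass against the low dose (0.58, adjusted p = 0.141). Both peaked at the medium dose, where MT-ND5 averaged 15218 CPM, compared with 3409 CPM at the low dose. MT-ATP8 with MT-ATP6 and MT-ND4L with MT-ND4 share bases, so their reads cannot be divided with certainty.

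**Figure D1:**
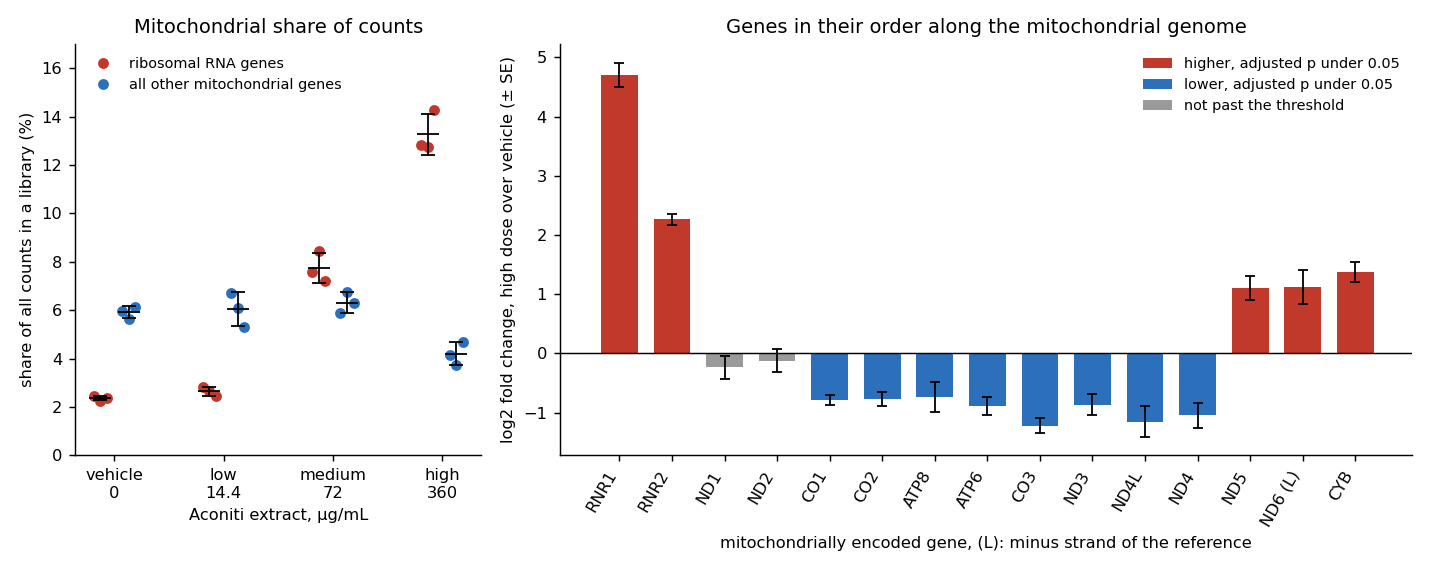
The left panel plots the percentage of each library's counts from the 2 mitochondrial ribosomal RNA genes and from all other mitochondrial genes, by dose of extract in µg/mL, with points for libraries and bars for mean ± SD (n = 3). The right panel plots the log2 fold change of high dose over vehicle ± SE for each gene in genome order: ribosomal RNAs stand at 4.71 and 2.26, the genes from MT-CO1 to MT-ND4 are below 0, and MT-ND5, MT-ND6 and MT-CYB are above 0.

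Nuclear genes of the mitochondrion moved far less. Of 37 nuclear respiratory chain subunits 5 were higher and 1 lower, with a median of 0.08, and against the low dose, or with high-dose library 1 alone against vehicle, 0 were higher and 1 lower. With length balance as a covariate 2 were higher and 15 lower. Of 28 tested factors of mitochondrial transcription, translation and import, 7 were higher and 9 lower, beside 17% and 15.7% of all genes tested. LONP1, the matrix protease, had 154, 198 and 166 CPM at the high dose, against 92.8, 93.9 and 96.1 CPM in vehicle (0.88 ± 0.08). HSPE1, the co-chaperonin of the matrix, fell by 0.70.

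Stress regulators downstream of ATF4 and CHOP rose as a group. All 17 tested of the 18 listed were higher at the high dose, with a median of 1.66, against 17% of all genes higher and a median of -0.0045. Against the low dose 16 of them were higher. The remaining list member, FGF21, reached no more than 6 counts in any library.

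DDIT3, which encodes CHOP (chr12:57516588-57521737), had 51, 59.0 and 58.3 CPM at the high dose, against 8.87, 9.86 and 9.90 CPM in vehicle (2.56 ± 0.15, adjusted p = 9.0e-18). TRIB3, a pseudokinase that restrains this programme (chr20:362835-397559), had 381, 465 and 398 CPM at the high dose, against 62.6, 66.7 and 70.4 CPM in vehicle (2.64 ± 0.11). NIBAN1, a cytosolic protein raised by stress, had 88.8, 49.3 and 59.8 CPM at the high dose, against 9.67, 10.6 and 9.58 CPM in vehicle (2.72 ± 0.20). High-dose library 1 was the highest of the 3 for NIBAN1 and the lowest for DDIT3 and TRIB3. No high-dose library reached the vehicle range for any of them, a condition on which genes among the largest rises were picked. STC2, a secreted glycoprotein (chr5:173314713-173329503), had 172, 133 and 141 CPM at the high dose, against 28.2, 28.9 and 28.4 CPM in vehicle (2.38 ± 0.08). SESN2, a leucine sensor that restrains mTORC1, rose by 2.07 and CHAC1, which breaks down glutathione, by 2.06. ATF4 itself, named after its values were seen, had 356, 393 and 417 CPM at the high dose, against 253, 255 and 253 CPM in vehicle (0.61 ± 0.09). Its translation, the step at which ATF4 is chiefly controlled, was not measured.

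Enzymes that make serine, one-carbon units, asparagine and proline were higher in 12 of 15 and lower in 0, with a median of 0.97. Against the low dose 12 were also higher. The shares of all genes tested that were higher were 17% against vehicle and 11.4% against the low dose. CBS, which condenses serine with homocysteine, had 79.2, 89.3 and 88.6 CPM at the high dose, against 25.1, 25.1 and 24.0 CPM in vehicle (1.79 ± 0.07). A near-identical copy, CBSL, makes the share counted for CBS uncertain. ASNS, asparagine synthetase, had 315, 339 and 337 CPM at the high dose, against 118, 130 and 121 CPM in vehicle (1.42 ± 0.07). PHGDH, the entry enzyme of serine synthesis, had 167, 226 and 193 CPM at the high dose, against 70.6, 74.0 and 73.8 CPM in vehicle (1.42 ± 0.12). Both enzymes stood clear of vehicle in every library, and in 41.6% of all genes tested the groups did not overlap. ALDH18A1, of proline synthesis, was among the 3 members that did not pass. PCK2, the mitochondrial phosphoenolpyruvate carboxykinase, had 130, 180 and 146 CPM at the high dose, against 35.9, 35.8 and 36.2 CPM in vehicle.

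Transfer RNA synthetases, which charge tRNAs with amino acids, were higher in 10 of 13 and lower in 0, with a median of 0.60. Over all genes tested 17% were higher and 15.7% lower. SARS1, for serine, had 162, 207 and 188 CPM at the high dose, against 84.4, 85.3 and 88.8 CPM in vehicle (1.11 ± 0.09). AARS1, for alanine, had 552, 578 and 542 CPM at the high dose, against 297, 294 and 283 CPM in vehicle (0.94 ± 0.07). TARS1, for threonine, did not pass, with 302, 257 and 289 CPM at the high dose, against 280, 260 and 278 CPM in vehicle. Amino acid transporters were mixed: 6 of 11 tested were higher and 1 lower. SLC6A9, a glycine transporter, had 28, 29 and 24.3 CPM at the high dose, against 7.80, 8.60 and 9.11 CPM in vehicle (1.67 ± 0.08), and SLC1A4, which carries alanine, serine and cysteine, rose by 1.22. The abundant leucine carrier SLC7A5 had 4241, 4673 and 3840 CPM at the high dose, against 4169, 3815 and 3765 CPM in vehicle (0.12, adjusted p = 0.205), and SLC7A11, the cystine carrier, overlapped between groups (0.03, adjusted p = 0.915).

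**Figure D2:**
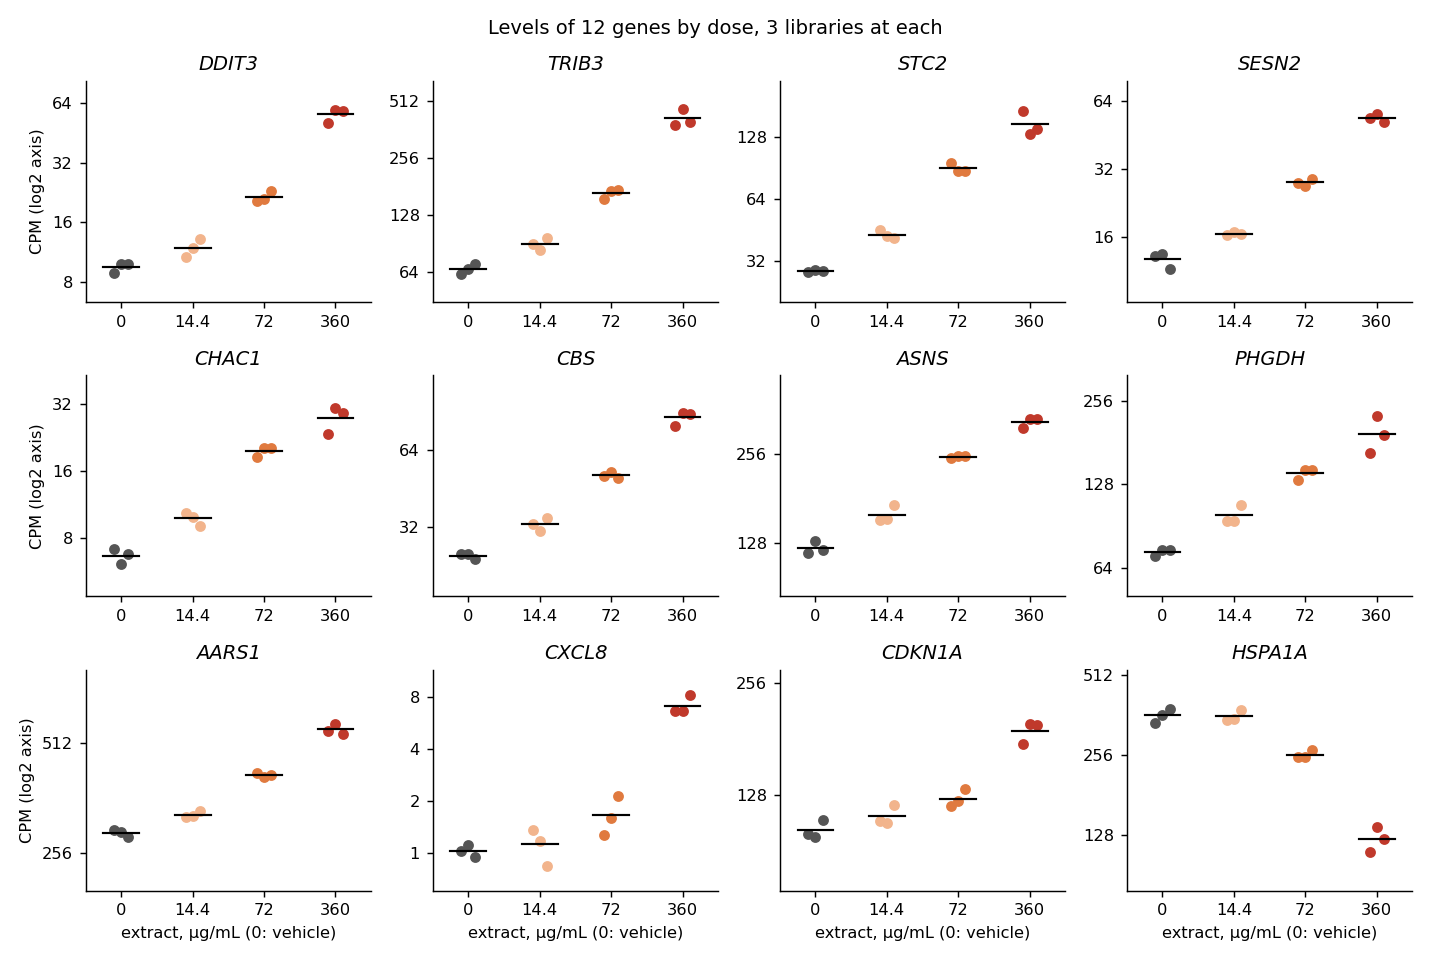
Each panel plots the CPM of 1 gene on a log2 axis at 0 (vehicle), 14.4, 72 and 360 µg/mL of extract, with points for the 3 libraries and a line at their mean. The stress and amino acid genes climb across the 3 doses, CXCL8 and CDKN1A are highest at 360 µg/mL, and HSPA1A is lowest there.

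The promoters of the amino acid genes are shown because ATF4 binds composite elements whose core is TGATGNAA, with N for any base. In windows of 250 bases before each RefSeq gene start (GRCh38.p14), searched on both strands, the 8 letters occurred in 7 of the 46 windows found for the 58 members of the 4 lists above, 15.2%, and in 870 of 27305 windows of all genes, 3.19%. ATF3, IARS1 and FGF21 also held it. A match describes letters only. MTHFD1L, a mitochondrial one-carbon enzyme named for its match, had 80.1, 84.1 and 77.7 CPM at the high dose, against 54.4, 53.6 and 53.3 CPM in vehicle (0.59 ± 0.06). Below, stretches of ASNS (chr7:97872429-97872516, minus strand), CHAC1 (chr15:40953222-40953309, plus strand), AARS1 (chr16:70289646-70289733, minus strand) and MTHFD1L (chr6:150866317-150866404, plus strand) have the match in capitals, read 5′ to 3′ along each gene's own strand; CHAC1 and AARS1 hold it as its reverse complement.
ASNS: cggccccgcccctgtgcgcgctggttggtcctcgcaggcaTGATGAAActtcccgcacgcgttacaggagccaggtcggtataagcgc
CHAC1: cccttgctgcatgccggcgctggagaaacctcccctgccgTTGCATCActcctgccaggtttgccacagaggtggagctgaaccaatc
AARS1: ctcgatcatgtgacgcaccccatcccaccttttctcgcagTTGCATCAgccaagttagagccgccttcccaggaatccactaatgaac
MTHFD1L: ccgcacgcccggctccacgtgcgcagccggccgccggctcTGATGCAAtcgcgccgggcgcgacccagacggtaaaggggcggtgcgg

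Folding genes of the endoplasmic reticulum did not move as one. Of 21 members 6 were higher and 1 lower, with a median of 0.00, and against the low dose the counts were again 6 and 1. Among all genes tested, 17% were higher and 15.7% lower against vehicle, and 11.4% and 11.3% against the low dose. ERN1, which encodes the sensor IRE1alpha, had 46.1, 35.4 and 35.9 CPM at the high dose, against 13.9, 16.5 and 15.5 CPM in vehicle (1.35 ± 0.11). XBP1, the factor that IRE1alpha activates by splicing, had 107, 132 and 132 CPM at the high dose, against 53.6, 58.1 and 62.9 CPM in vehicle (1.09 ± 0.10). HSPA5, the chaperone BiP, had 1044, 1022 and 1042 CPM at the high dose, against 614, 630 and 662 CPM in vehicle (0.71 ± 0.05). HERPUD1, of endoplasmic reticulum degradation, rose by 1.02. HSP90B1, the chaperone GRP94, had 777, 702 and 811 CPM at the high dose, against 797, 812 and 800 CPM in vehicle and did not pass. CALR, the lectin chaperone calreticulin, named after its values were seen as the member that fell, was at -0.32. With length balance as a covariate 10 members were higher and 5 lower.

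Heat shock proteins and cytosolic chaperones fell. Of 23 members 17 were lower and 1 higher at the high dose, with a median of -0.53, against 15.7% of all genes lower, and the counts against the low dose were 17 and 1. HSPA1A (chr6:31815464-31817946) had 110, 136 and 123 CPM at the high dose, against 338, 360 and 382 CPM in vehicle (-1.55 ± 0.10, adjusted p = 1.6e-16). HSPA1B, its near-identical neighbour, had 77.5, 103 and 86.6 CPM at the high dose, against 210, 223 and 236 CPM in vehicle (-1.32 ± 0.09), and reads may be divided arbitrarily between the pair. Neither gene overlapped between groups, a condition on which the largest falls were picked and which held for 41.6% of all genes tested. HSPH1, a nucleotide exchange factor for such chaperones, had 141, 113 and 137 CPM at the high dose, against 241, 253 and 245 CPM in vehicle (-0.92 ± 0.07). HSPA8, the constitutive member, had 1178, 1139 and 1218 CPM at the high dose, against 2034, 2086 and 2070 CPM in vehicle (-0.81 ± 0.08), with processed copies elsewhere in the genome. HSP90AA1, the inducible cytosolic HSP90, had 1591, 1829 and 1891 CPM at the high dose, against 2945, 3075 and 2981 CPM in vehicle (-0.76 ± 0.10). The member that rose, HSF1, named after its values were seen, encodes the heat shock factor and had 108, 132 and 119 CPM at the high dose, against 78.0, 77.7 and 83.0 CPM in vehicle (0.59 ± 0.08). Proteasome subunits, by contrast in number, had 0 higher and 4 lower of 21, with PSMD1 at -0.53, but 16 lower with length balance as a covariate.

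The heat shock element was searched as GAANNTTCNNGAA on both strands. It occurred in 2 of the 20 windows found for the 23 chaperone genes, 10.0%, and in 120 of 27305 windows of all genes, 0.439%. Both matches are shown, before HSPA8 and CHORDC1. CHORDC1, an HSP90 co-chaperone, had 77.1, 63.0 and 74.8 CPM at the high dose, against 123, 127 and 126 CPM in vehicle (-0.81 ± 0.07). Both genes fell, as did 17 of the 23 listed, so a match before a gene that fell carries no weight. As above, a match describes letters only. Capitals mark the matches, which overlap one another in CHORDC1 (chr11:90223057-90223149, minus strand; HSPA8 chr11:123062314-123062386, minus strand).
CHORDC1: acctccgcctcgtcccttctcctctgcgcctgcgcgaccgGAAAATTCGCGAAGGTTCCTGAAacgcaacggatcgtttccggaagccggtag
HSPA8: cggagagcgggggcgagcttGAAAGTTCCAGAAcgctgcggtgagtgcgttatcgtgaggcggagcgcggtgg

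Most cytokines and chemokines tested were higher. Together the listed genes held 493, 481 and 478 CPM in the high-dose libraries, against 305, 309.6 and 316 CPM in vehicle, and the chemokines named next made up a small part of that. Of 13 tested members 11 were higher and 0 lower, with a median of 1.4, and 10 were higher against the low dose. Over all genes tested 17% were higher against vehicle and 11.4% against the low dose. IL6, IL1A, IL1B, CSF2 and TNF reached no more than 8 counts in any library and were not tested. CXCL8, which encodes the neutrophil attractant interleukin-8 (chr4:73740506-73743716), had 6.59, 6.59 and 8.19 CPM at the high dose, against 1.03, 1.11 and 0.943 CPM in vehicle (2.78 ± 0.21, adjusted p = 1.8e-14). CXCL2, a related chemokine, had 12.2, 11.7 and 13.3 CPM at the high dose, against 1.94, 2.69 and 2.83 CPM in vehicle (2.33 ± 0.19). CXCL1 rose by 2.00 and IL32, an intracellular cytokine, by 1.4. ICAM1, a ligand for leukocyte integrins, had 2.69, 2.95 and 2.91 CPM at the high dose, against 0.609, 0.775 and 0.733 CPM in vehicle. None of these 5 genes exceeded 13.3 CPM in a high-dose library.

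Of 14 NF-kB subunits and feedback genes, 9 were higher and 1 lower, with a median of 0.37. Over all genes tested 17% were higher and 15.7% lower. RELB, a subunit of the noncanonical arm, had 31.8, 41.4 and 36.1 CPM at the high dose, against 14.9, 13.9 and 14.0 CPM in vehicle (1.35 ± 0.11), and NFKB2 of the same arm rose by 0.87. NFKBIA, the inhibitor that NF-kB itself induces, had 59.6, 67.2 and 66.8 CPM at the high dose, against 45.1, 45.7 and 47.1 CPM in vehicle (0.49 ± 0.10), but did not pass with high-dose library 1 alone. In the interferon response 3 of 19 tested members were higher, near the share over all genes, and 1 was lower, with a median of 0.19.

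Among AP-1 and EGR immediate-early factors, 9 of 16 tested were higher and 3 lower, beside 17% higher and 15.7% lower among all genes tested. FOSL1, an AP-1 subunit (chr11:65892049-65900573), had 63.6, 65.4 and 66.5 CPM at the high dose, against 28.9, 26.7 and 29.6 CPM in vehicle (1.2 ± 0.08). The 3 that fell were the nuclear receptors NR4A3, NR4A1 and NR4A2; NR4A1 and NR4A2 are named after their values were seen. NR4A3 had 3.94, 3.29 and 3.54 CPM at the high dose, against 8.83, 8.67 and 7.49 CPM in vehicle (-1.22 ± 0.15). ERK feedback genes were higher in 9 of 16 and lower in 1, among them DUSP6, an ERK phosphatase, with 18, 16.6 and 18.2 CPM at the high dose, against 9.67, 10.0 and 10.1 CPM in vehicle (0.83 ± 0.09). Of 21 growth factor receptors and ligands, 11 were higher and 4 lower. EREG, an EGF receptor ligand (chr4:74365143-74388751), had 377, 290 and 317 CPM at the high dose, against 160, 164 and 157 CPM in vehicle (1.03 ± 0.09). The ligands AREG and BTC rose by 0.99 and 1.32, while FGFR3, a fibroblast growth factor receptor, had 3.80, 5.98 and 5.55 CPM at the high dose, against 10.4, 11.9 and 11.6 CPM in vehicle (-1.14 ± 0.11).

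Genes of proliferation fell in number. Of 30 genes of DNA replication and the G1/S transition 22 were lower and 0 higher (median -0.38), and of 30 genes of mitosis and G2/M 25 were lower and 0 higher (median -0.56), against 15.7% lower among all genes. Against the low dose 23 and 26 were lower. With length balance as a covariate the counts were 28 and 30, and over all 17268 genes 3308 were lower with it. In high-dose libraries 1, 2 and 3 the median log2 ratio to the vehicle mean was -0.44, -0.32 and -0.39 for replication. For mitosis it was -0.58, -0.65 and -0.55.

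CCNE2, cyclin E2, had 3.25, 2.51 and 3.5 CPM at the high dose, against 8.15, 8.01 and 8.43 CPM in vehicle (-1.4 ± 0.13). RRM2, a subunit of ribonucleotide reductase (chr2:10120698-10131419), had 185, 197 and 190 CPM at the high dose, against 337, 337 and 337 CPM in vehicle (-0.82 ± 0.04). MCM10, which loads replication proteins at origins, had 42.1, 39.9 and 40.2 CPM at the high dose, against 79.1, 75.9 and 71.1 CPM in vehicle (-0.89 ± 0.07). Each high-dose library was below every vehicle library for these 3 genes, and in 41.6% of all genes tested the groups did not overlap. MKI67, which encodes the proliferation antigen Ki-67 on a long transcript (chr10:128096659-128126385), had 273, 153 and 158 CPM at the high dose, against 575, 522 and 449 CPM in vehicle (-1.41 ± 0.28, adjusted p = 9.1e-05). ASPM, a spindle pole protein, had 80.0, 43.3 and 52.6 CPM at the high dose, against 162, 154 and 139 CPM in vehicle (-1.37 ± 0.24). For both, high-dose library 1 lay between the other high-dose libraries and vehicle, and with it as the lone high-dose library MKI67, ASPM and CENPF lost their calls, at -0.90 (adjusted p = 0.147), -0.91 (adjusted p = 0.0671) and -0.75 (adjusted p = 0.0781). CDC20, an activator of the anaphase-promoting complex, had 138, 182 and 160 CPM at the high dose, against 170, 172 and 176 CPM in vehicle and did not pass (-0.11, adjusted p = 0.352), though it did with length balance as a covariate.

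Over all genes tested, the calls differed by transcript length. In genes with longest transcripts over 6000 bases the median log2 ratio to the vehicle mean was -0.031, -0.306 and -0.259 in high-dose libraries 1, 2 and 3, and in genes of up to 1500 bases it was -0.0037, 0.132 and 0.147. The share of genes called lower was 30.1% over 6000 bases and 3.70% up to 1500 bases, while the share called higher was 7.76% and 14.1%. The part of transcript length in the changes of single long genes was not tested beyond the refits named.

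**Figure D3:**
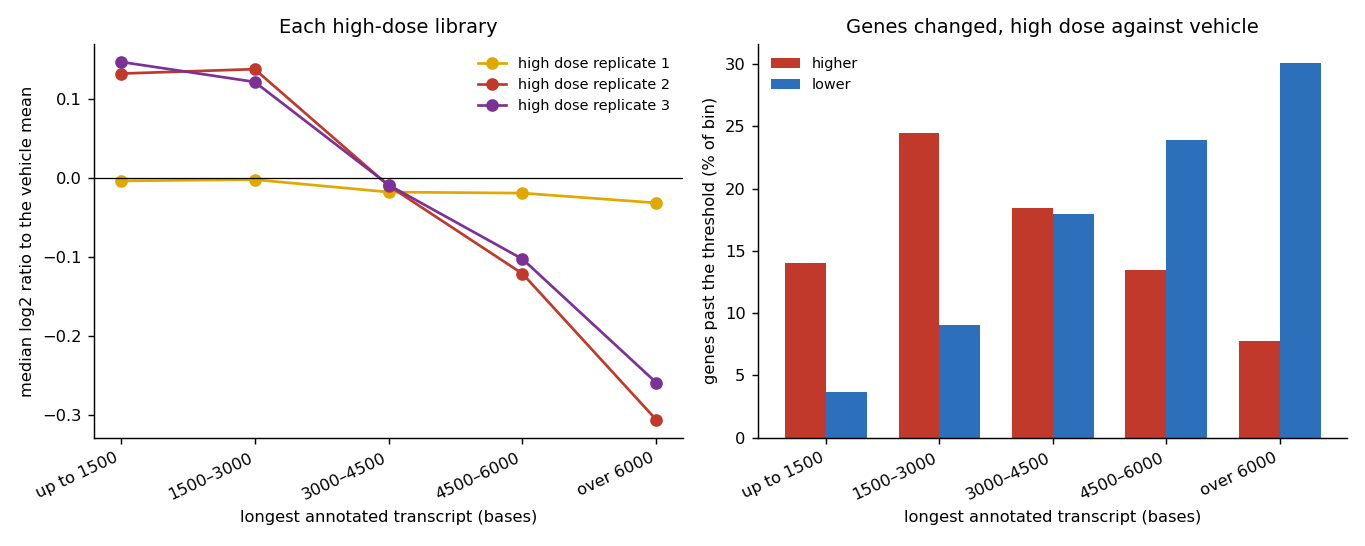
The left panel plots the median log2 ratio of each high-dose library to the vehicle mean in 5 bins of longest annotated transcript in bases, and the right panel plots the percentage of each bin called higher or lower. Libraries 2 and 3 fall to -0.306 and -0.259 over 6000 bases, and library 1 stays near 0 in every bin.

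**Figure D4:**
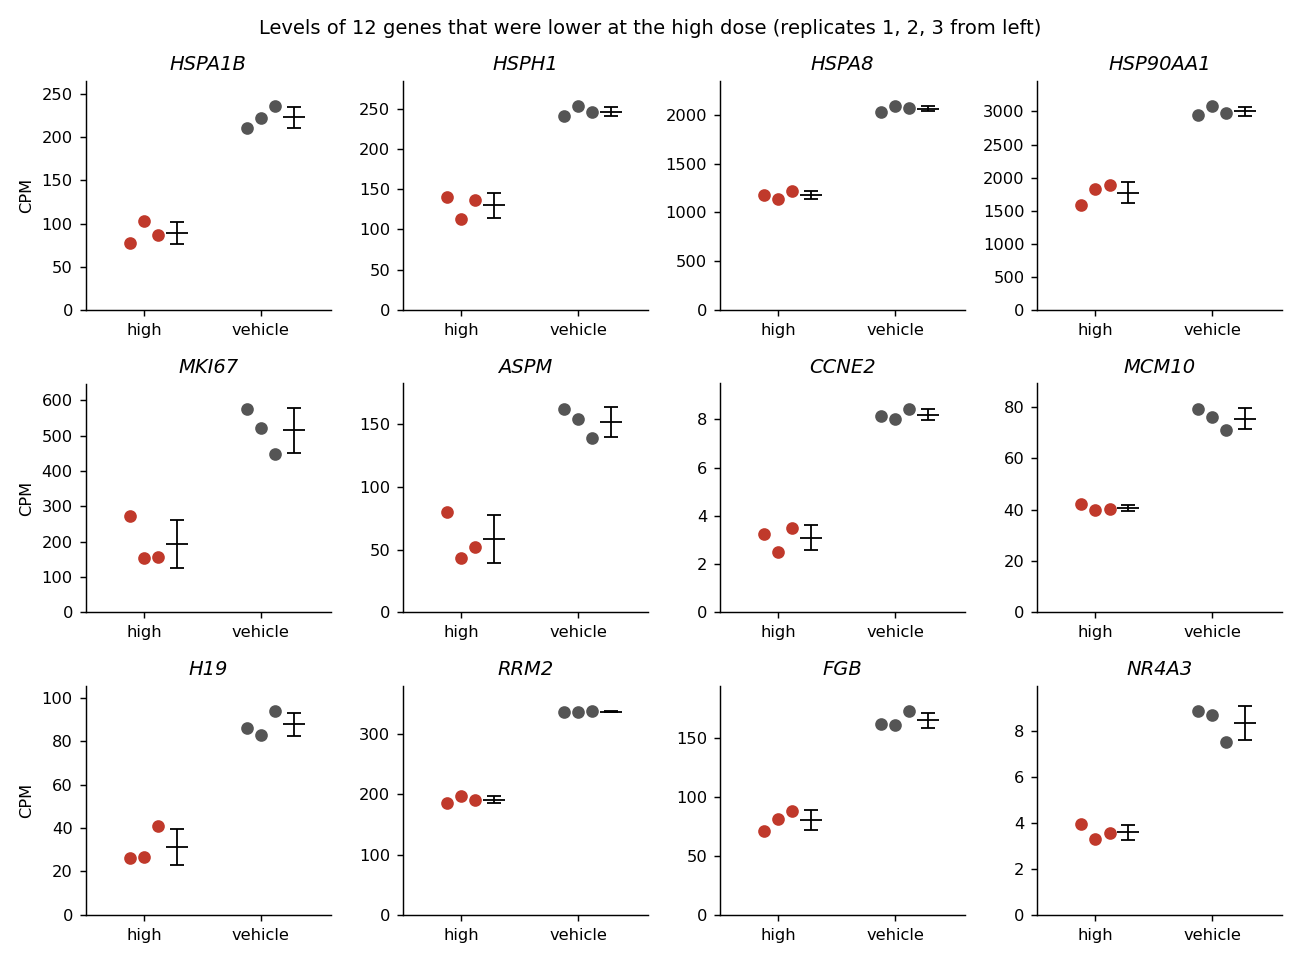
Each panel plots the CPM of 1 gene in the 3 high-dose and 3 vehicle libraries, replicates 1 to 3 from the left, with mean ± SD beside them on an axis from 0. All 12 genes have every high-dose library below every vehicle library. Genes named among the largest falls were picked on that condition, and in 41.6% of all genes tested the groups did not overlap. MKI67 and ASPM show library 1 as the highest of the high-dose libraries.

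Targets of p53, the tumour suppressor that is intact in A549 cells, were higher in 16 of 22 and lower in 1, with a median of 0.37, and 15 were higher against the low dose. Over all genes tested 17% were higher against vehicle and 11.4% against the low dose. The median log2 ratio of the p53 targets to the vehicle mean was 0.35, 0.42 and 0.34 in high-dose libraries 1, 2 and 3. CDKN1A, the cell-cycle inhibitor p21 (chr6:36676460-36687339), had 176, 199 and 197 CPM at the high dose, against 100.0, 98.5 and 109 CPM in vehicle (0.89 ± 0.09). BBC3, the death factor PUMA, had 16.1, 18.6 and 16.6 CPM at the high dose, against 5.63, 5.83 and 7.17 CPM in vehicle (1.47 ± 0.12), and GDF15, a secreted stress cytokine that is also an ATF4 target, had 66.1, 85.5 and 81.1 CPM at the high dose, against 22.6, 21.6 and 24.7 CPM in vehicle (1.76 ± 0.14). Each was higher in every high-dose library than in any vehicle library, and in 41.6% of all genes tested the groups did not overlap. Of 19 tested apoptosis regulators 7 were higher and 3 lower, led by HRK at 1.45 and PMAIP1, the death factor NOXA, with 34.2, 31.9 and 36.6 CPM at the high dose, against 13.3, 17.2 and 13.9 CPM in vehicle (1.21 ± 0.09). TNFRSF10B, the death receptor DR5, rose by 0.81.

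**Figure D5:**
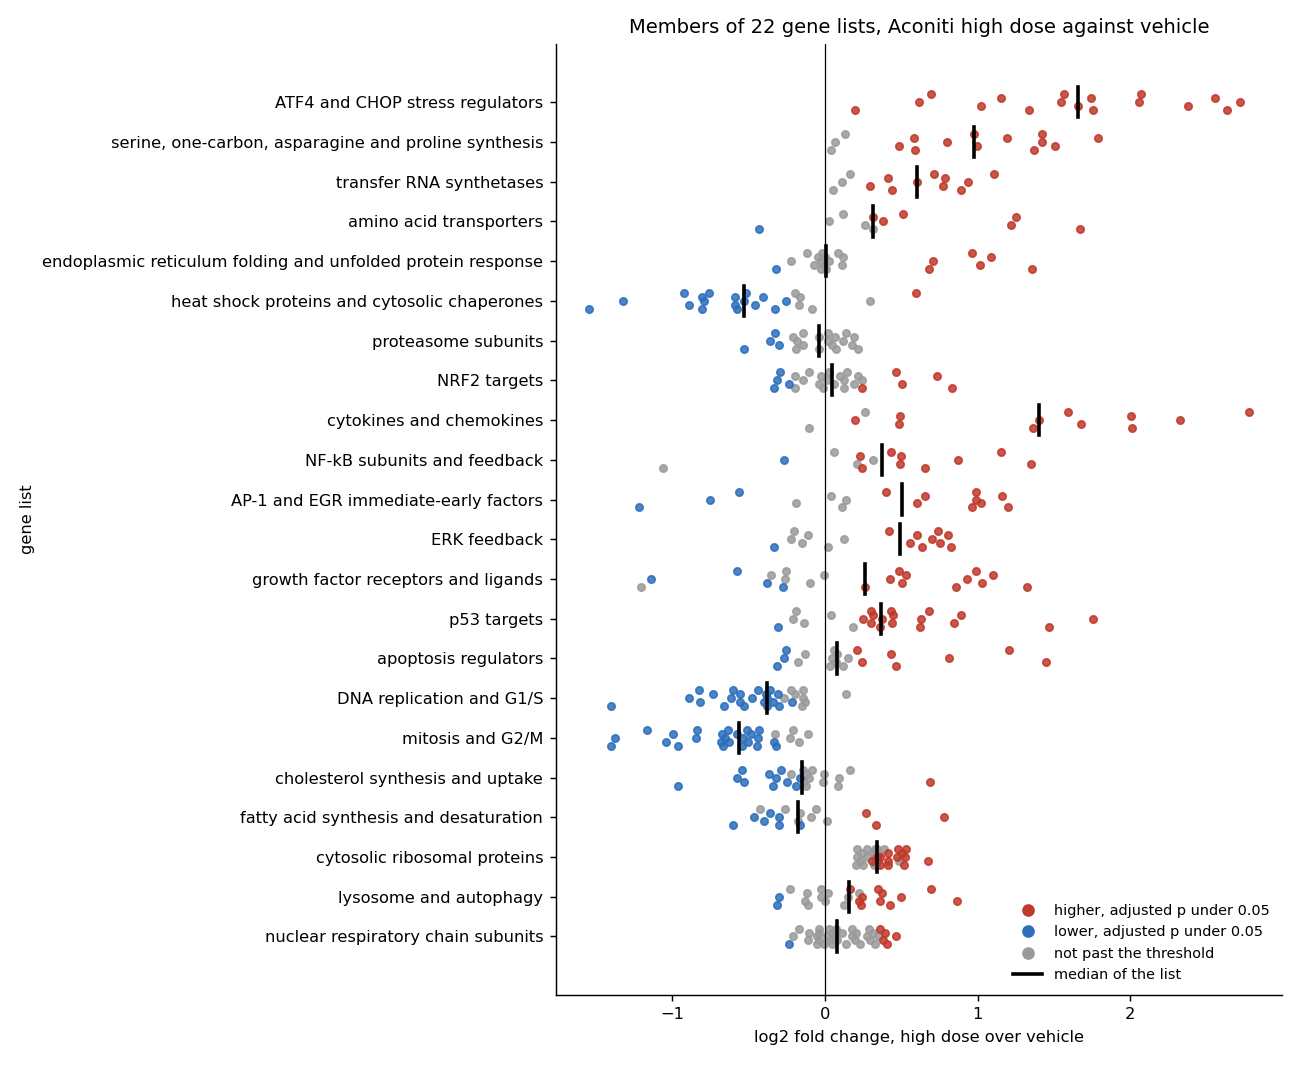
Each row plots the log2 fold change of high dose over vehicle for the tested members of 1 of 22 gene lists, with a bar at the median of the list and colour for the call at an adjusted p under 0.05. Regulators downstream of ATF4 lie above 0 with a median of 1.66, chaperones have a median of -0.53, and mitosis genes lie below 0 with a median of -0.56.

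Cholesterol synthesis and uptake leaned lower, with 11 of 24 lower and 1 higher, beside 15.7% and 17% of all genes tested, and a median of -0.15. With high-dose library 1 as the lone high-dose library 7 were lower and 0 higher. HMGCS1, an early enzyme, had 156, 125 and 136 CPM at the high dose, against 202, 207 and 200 CPM in vehicle (-0.55 ± 0.07), and it averaged 148 CPM at the medium dose. Of 17 genes of fatty acid synthesis 3 were higher and 7 lower, and with high-dose library 1 as the lone high-dose library 0 and 2.

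NRF2 targets, the antioxidant genes, had 5 of 26 higher and 4 lower, with a median of 0.04. These counts were near the shares over all genes tested, 17% higher and 15.7% lower. The list's median log2 ratio to the vehicle mean was -0.088, 0.058 and 0.122 in high-dose libraries 1, 2 and 3. With length balance as a covariate 7 were higher and 10 lower. HMOX1, heme oxygenase, had 263, 316 and 312 CPM at the high dose, against 165, 158 and 176 CPM in vehicle (0.84 ± 0.09), and FTH1, ferritin heavy chain, had 4619, 5988 and 6026 CPM at the high dose, against 2815, 3322 and 3849 CPM in vehicle (0.74 ± 0.13). FTH1 has many processed copies, so its count is uncertain. NQO1, a classic target, had 1442, 1850 and 1847 CPM at the high dose, against 1557, 1594 and 1658 CPM in vehicle and did not pass. A549 carries a KEAP1 mutation that keeps NRF2 active, as background.

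The aryl hydrocarbon receptor, a sensor of planar ring compounds, has a list of its own. Of its 8 tested members 4 were higher and 1 lower, but 2 were higher against the low dose. Among all genes tested, 17% were higher and 15.7% lower against vehicle, and 11.4% were higher against the low dose. CYP1B1, a xenobiotic oxidase (chr2:38066973-38109902), had 113, 92.1 and 111 CPM at the high dose, against 55.0, 52.7 and 53.9 CPM in vehicle (0.97). By dose it averaged 53.9 CPM with vehicle, 85.6 CPM at the low dose, 90.7 CPM at the medium dose and 105 CPM at the high dose, and the high dose exceeded the low dose by 0.30 (adjusted p = 0.0284). CYP1A1, its close relative, had 1.95, 2.43 and 3.03 CPM at the high dose, against 0.914, 1.11 and 0.524 CPM in vehicle (1.5), and differed from the low dose by 0.20 (adjusted p = 0.483). The levels of both at the low dose lay above vehicle, and the low-dose libraries carry a set label that vehicle does not.

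At the low dose 12 genes passed against vehicle, 0.0695% of those tested, all of them higher, and 736 had an unadjusted p under 0.05. Without low-dose library 3 or vehicle library 1 the count was 5, and without vehicle library 3 it was 7. They were ADM2, ASNS, CBS, DDIT4, PSAT1, SESN2 and STC2 of the stress and amino acid lists or named above, CYP1A1 and CYP1B1, MT-RNR1, and IRF2BPL and TMEM156, the last 2 named after their values were seen. MT-RNR1 was 1.23 higher, CYP1A1 1.31, CYP1B1 0.67 and STC2 0.59. DDIT3 averaged 9.54 CPM with vehicle, 11.9 CPM at the low dose, 21.4 CPM at the medium dose and 56.1 CPM at the high dose, and TRIB3 averaged 66.6, 90.6, 167 and 414 CPM in that order. For CXCL8 the averages were 1.03, 1.12, 1.66 and 7.12 CPM, so that most of its difference lay between the medium and the high dose.

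Beside 17% of all genes tested higher and 15.7% lower, cytosolic ribosomal proteins were higher in 14 of 34 and lower in 0. Their median was 0.34, but 2 were higher against the low dose. Against vehicle 24 were higher in a fit of the 6 compared libraries alone, 7 with length balance as a covariate and 0 with high-dose library 1 as the lone high-dose library. All ribosomal protein genes together held 5.63%, 6.94% and 6.76% of counts in the high-dose libraries, against 5.31%, 5.49% and 5.76% in vehicle, and their transcripts are short. Mitochondrial ribosomal proteins had 4 of 24 higher and 1 lower, with 0 and 0 against the low dose and 1 and 6 with length balance as a covariate. Ribosome biogenesis had 3 of 26 higher and 4 lower, and 4 and 8 with that covariate. Lysosome and autophagy genes were higher in 11 of 24 and lower in 2 (6 and 0 with high-dose library 1 alone), among them SQSTM1, the autophagy receptor p62, with 1220, 1445 and 1347 CPM at the high dose, against 791, 818 and 871 CPM in vehicle (0.69 ± 0.08). WIPI1, of autophagosome formation, rose by 0.87.

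Liver-type plasma proteins made by A549 cells leaned lower. Of 9 tested acute phase genes 4 were lower and 2 higher, beside 15.7% and 17% of all genes tested. FGB, the fibrinogen beta chain (chr4:154562956-154571086), had 71.0, 81.6 and 88.1 CPM at the high dose, against 161, 161 and 172 CPM in vehicle (-1.04 ± 0.07), FGA fell by 0.84 and FGG by 0.62. Albumin and the other hepatocyte markers summed to between 0.22 and 0.49 CPM at the high dose and between 0.35 and 0.69 CPM with vehicle, with 1 of 5 tested. H19 (chr11:1995176-2001470) had 26.2, 26.6 and 40.7 CPM at the high dose, against 86.3, 83.0 and 93.7 CPM in vehicle (-1.49 ± 0.11). IGFBP3, a carrier of insulin-like growth factors, fell by 0.51. The list of that axis had 3 of 15 higher and 3 lower, near the shares over all genes.

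Adhesion and matrix genes changed singly. OCLN, a tight junction protein, had 45.3, 38 and 40.6 CPM at the high dose, against 20.6, 19.4 and 18.7 CPM in vehicle (1.07 ± 0.09). For the lists of this paragraph, the shares over all genes tested were 17% higher and 15.7% lower. Epithelial and mesenchymal state had 3 higher and 3 lower of 18, near those shares. Integrins, laminins and collagens had 5 higher and 2 lower of 21. With length balance as a covariate the list of integrins, laminins and collagens had 10 higher and 2 lower. Fibroblast markers summed to between 20.1 and 22.9 CPM at the high dose and between 35.0 and 36.5 CPM with vehicle; of 4 tested COL1A1 fell by 0.57 and COL3A1 by 1.08. Keratins were higher in 4 of 8 tested and lower in 0, with KRT7 at 0.62. With high-dose library 1 alone 1 was higher and 1 lower, and KRT7 lost its call. GREM1, a secreted BMP antagonist, had 17.7, 15.0 and 15.4 CPM at the high dose, against 4.76, 4.10 and 5.13 CPM in vehicle (1.79 ± 0.12), in a list of ID genes and BMP control with 3 of 14 higher and 3 lower.

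The remaining lists are given by count, beside 17% of all genes tested higher and 15.7% lower. Glycolysis, glucose uptake and hypoxia had 7 of 30 higher and 8 lower, with VEGFA, the angiogenic factor, 0.86 higher and HK2, a hexokinase, 1.19 higher. Glucocorticoid-induced genes had 2 of 12 higher, TSC22D3 among them, and 5 lower, and circadian clock genes 4 of 16 higher and 1 lower. Targets of TGF-beta and YAP had 5 of 18 higher and 4 lower, xenobiotic enzymes and transporters 5 of 21 higher and 3 lower, and complement 3 of 12 higher and 2 lower. Channels and pumps for sodium, potassium and calcium, of which voltage-gated sodium channels are the known target of aconitine, had 1 of 24 tested higher and 4 lower, and 7 and 6 with length balance as a covariate. Replication-dependent histones had 2 of 10 higher and 2 lower, and metallothioneins and zinc response 1 of 6 higher and 1 lower. Alveolar and airway markers had 1 of 6 tested higher and 0 lower, and leukocyte markers 0 of 2 tested.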

How the data were processed

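RNA of A549 cells had been sequenced as directional mRNA libraries with 100-base paired reads, per the labels' protocols, from RNA with an integrity number over 7. FastQC 0.11.9, Trim Galore 0.6.5, STAR 2.7.3a, RSEM 1.3.3 and GRCh38 are listed in the submitters' processing notes. The annotation release and strand setting are not given in the sources used here, so antisense and overlapping genes are uncertain. The authors deposited expected counts per gene; 9.37% of the values used were not whole, and all were rounded. Of 269 sample columns, 60 were used and 209 were not. Of 60675 identifiers, 57055 had a symbol and GRCh38 coordinates in GENCODE 29.

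The test was edgeR 4.0.16 (R 4.3.3), its quasi-likelihood test with TMM scaling, filterByExpr and Benjamini-Hochberg adjustment at 0.05, fitted over 57 libraries in 19 groups of 3, which share the spread (38 residual degrees of freedom). A preparation with 1 library per dose was left out. CPM used TMM library sizes, SE is the log2 fold change over the root of F, and the code was tested on simulated counts. Named genes were the 15 largest changes each way (5 CPM or more, libraries not overlapping, named protein-coding genes or lncRNAs), up to 6 called and 3 uncalled members of each of 49 lists, and the 8 most abundant called genes each way; of 890 list members 888 matched. The lists and genes were chosen with earlier results of these data known. Alternatives were RLE scaling, DESeq2 1.42.0, no filter, the compared libraries alone, replicate block, length covariate, mitochondrial genes removed, a robust fit and libraries left out.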

Additional observations from a re-analysis of the deposited data

How the results depend on the processing

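High dose against vehicle gave 5652 genes and between 4273 and 6599 under every planned setting, except between 3959 and 6536 when 1 library was left out; with high-dose library 1 as the lone high-dose library, an alternative chosen after seeing the data that takes its spread from the other groups, it gave 2184. High dose against low dose gave 3922 genes, 1501 with the compared libraries alone, 6117 with the length balance as covariate, 1883 with high-dose library 1 alone and between 2942 and 4420 when 1 library was left out. Low dose against vehicle gave 12 genes, 22 with DESeq2, 6 without the low-count filter, 2 with the compared libraries alone, 28 with the length balance as covariate (27 higher) and between 5 and 9 when 1 library was left out. The causes were not tested. With the replicate block, high dose against vehicle gave 5611 genes. Deviations of same-numbered libraries from their group means correlated at 0.184, -0.063 and 0.138. High-dose library 2 correlated best with vehicle library 3, at 0.149. Correlations over 3 libraries per group cannot settle whether same-numbered libraries were paired. Of 264 named genes past the threshold 246 kept their call with the length covariate, 245 with the compared libraries alone, 261 with the replicate block, 182 with high-dose library 1 alone and between 223 and 257 with 1 library left out, and 0 changed sign. Of 98 counts of list members, higher or lower, 29 moved by over 1.5 times with the length covariate and 39 with high-dose library 1 alone. The mitochondrial share ran between 16.7% and 18% at the high dose and between 8.18% and 8.49% with vehicle when 1 library was left out. Depth limits genes of a few CPM, such as CXCL8, where single libraries hold few counts.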

Other observations

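Host genes of small nucleolar RNAs, transcripts that are spliced to release those RNAs, were looked up after their values were seen. Of 28 tested hosts 12 were higher and 2 lower at the high dose, with a median log2 fold change of 0.37, and against the low dose 12 were higher and 1 lower. Over all genes tested 17% were higher and 15.7% lower against vehicle, and 11.4% and 11.3% against the low dose. GAS5 had 256, 313 and 304 CPM at the high dose, against 113, 119 and 133 CPM in vehicle (1.26 ± 0.10, SE). ZFAS1, SNHG32 and SNHG8 were 1.54, 1.49 and 1.17 higher. Every high-dose library of GAS5 lay above every vehicle library, and in 41.6% of all genes tested the groups did not overlap.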
